A study of Mus musculus with 3 samples.

Results

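Long intergenic non-coding RNA (lincRNA) genes were described as sources of small RNAs in fully grown mouse oocytes. The members were the 5851 genes of type lincRNA in GENCODE M21 (5854 before 3 of 8 named genes were removed), out of 55450 annotated genes. A read was taken where its first 20 nt matched a lincRNA exon on either strand, and where it matched no microRNA, tRNA, rRNA, snRNA or snoRNA gene. At least 1 such read was found for 1752 of the 5851 genes, and 4099 had none. This count takes reads that also matched elsewhere, and 564 genes had at least 1 read that matched a single place. The share over all annotated genes is not given here.

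The oocytes, the large follicular oocytes before ovulation, came from mice that received PMSG, a hormone preparation that makes ovarian follicles grow, at 5 IU and 48 hours before death. Strain, genotype and age are not given in the sources used here, and neither is the number of mice or oocytes pooled. The oocyte label was not checked against marker genes, as only small RNA was measured. Total RNA was cut from polyacrylamide gels into 3 windows with 1 library each, called here the short-window (19-24 nt), long-window (24-30 nt) and full-window (19-30 nt) libraries. No difference between libraries therefore has a replicate check, no test was made, and the intervals given are 95% intervals of the counting error only.

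Mammalian oocytes hold 3 kinds of small RNA that guide Argonaute family proteins to other RNAs. MicroRNAs are cut from hairpins, endogenous siRNAs are cut by Dicer from double-stranded RNA, such as paired transcripts of opposite strands, and piRNAs are longer, made without Dicer and bound by Piwi proteins. Many piRNAs start with uridine, and those made by the reciprocal cutting of both strands overlap their partners by 10 nt, which places an adenine at base 10 of the partner. LincRNAs are capped, often spliced transcripts without a long open reading frame, and their exons often hold pieces of transposons and of processed pseudogenes, the reverse-transcribed copies of mRNAs.

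Sequences of 8 lincRNA genes are shown for what the results turn on, written 5′ to 3′ with T for U and with GRCm38 coordinates. Capitals mark the first base in the reads of this first set. Each of the first 3 matched at a single place among the annotated exons and led its gene's unique reads, and the last pair were the most-read long and short reads of Gm15298, each shared among a few places. Those of 26 nt are the start of reads in which no linker was found.
C86187, sense, chr7:46975540-46975561, minus strand: Tgtgctgtctgactagtgacgc
Gm4961, sense, chr5:30096603-30096623, plus strand: Tatgagccttgttctttccca
Rmrp, sense, chr4:43493034-43493059, minus strand: Agctcgctctgaaggcctgtttccta
Gm15298, sense, long, chrX:141900878-141900903, minus strand: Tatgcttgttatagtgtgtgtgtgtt
Gm15298, sense, short, chrX:141900697-141900717, minus strand: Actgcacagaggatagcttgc

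A further pair of reads from Gm12590 faced each other over 20 nt, which the capitals mark. Both were sized inserts with a single match.
Gm12590, antisense, chr11:121882651-121882671, plus strand: CGAGAGTCAAGTTTTCACTAg
Gm12590, sense, chr11:121882649-121882670, minus strand: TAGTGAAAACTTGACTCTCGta

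A pair of long reads from opposite strands of Gm26905 overlapped by their first 10 nt, in capitals, and both begin with T and have A at base 10. Their first 20 nt matched 64 and 63 places, among them also AC160336.1.
Gm26905, sense, chr8:58293706-58293731, plus strand: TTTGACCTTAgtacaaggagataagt
Gm26905, antisense, chr8:58293690-58293715, minus strand: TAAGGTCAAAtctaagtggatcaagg

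The last read, with its first base in capitals, matched 30 places and was antisense to Gm37724 at chr1:33066143-33066168 (minus strand) and sense to Gm38025 at chr3:31341195-31341220 (plus strand).
Gm37724 and Gm38025: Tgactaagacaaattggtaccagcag

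The short-, long- and full-window libraries held 764539, 1484509 and 943811 reads. Of the usable reads, 305283, 341861 and 195896 matched an annotated exon, and 52748, 263045 and 155565 of them matched no structural or microRNA gene. Read length was 26 nt in the short- and long-window libraries, which limits sizing there to inserts of up to 22 nt, and 36 nt in the full-window library. In comparisons with the full-window library, window and read length cannot be told apart.

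LincRNA exons were matched by 24861 reads of the short-window library, 122674 of the long-window library and 85370 of the full-window library. These were 47.1%, 46.6% and 54.9% of the matched reads outside structural genes. Most of these reads also matched elsewhere. With each read divided by the number of its matching places, lincRNA genes received 5158, 19596 and 17009 weighted reads. Per 1000000 matched reads (RPM) this gave 16897 RPM (exact Poisson interval 16439 to 17365) in the short-window library, 57321 (56521 to 58129) in the long-window library and 86824 (85524 to 88139) in the full-window library. The short-window library stood 0.295-fold against the long-window library per matched read (0.286 to 0.304). Its matched reads were 82.7% structural or microRNA reads, against 23.1% and 20.6% in the others. Per matched read outside those genes the same ratio was 1.31 (1.27 to 1.35), so that the direction between these libraries depends on what the reads are counted against. The full-window library was above the long-window library by both counts, 1.51-fold (1.48 to 1.55) and 1.47-fold (1.44 to 1.498).

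Few of the reads belonged to lincRNA genes alone. Uniquely matching reads, those with a single place among annotated exons, numbered 967 (3.89%, Wilson interval 3.66 to 4.14) in the short-window library, 2245 (1.83%, 1.76 to 1.91) in the long-window library and 2663 (3.12%, 3.005 to 3.24) in the full-window library. In exons of protein-coding genes the unique shares were 25.5%, 38.6% and 18.6%, and in pseudogenes 11.9%, 3.44% and 10.8%, higher than in lincRNA genes in each library. Of the lincRNA-matching reads, 93.6%, 95.4% and 94.3% also matched an exon of a coding gene, and 2.71%, 1.85% and 2.30% matched no gene of another type. Reads that matched D10Wsu102e as well, a named gene that is not a member, made up 34.6%, 42.2% and 34.4%. Places with 11 to 100 copies were the commonest class, with 59.7%, 64.7% and 61.9% of the reads. Whether these copies are transposons was not tested, since no repeat annotation was used.

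Unique reads can also be near copies of more frequent ones. Of the unique lincRNA reads, 8.37% in the short-window library, 33.0% in the long-window library and 14.7% in the full-window library differed at 1 base from a sequence with at least 10 times as many reads. In Gm34667 such near copies were 114 of 119 unique reads, and in AC160336.1 they were 115 of 234. C86187, Rmrp, Malat1 and Gm4961 had none among their 865, 496, 187 and 180 unique reads. Gm34667 was chosen after its values were seen.

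LincRNA reads came mostly from the sense strand, except those with over 100 places. The sense share of weighted reads was 63.0% (61.7 to 64.3) in the short-window library, 62.3% (61.6 to 63.0) in the long-window library and 63.8% (63.0 to 64.5) in the full-window library. Unique reads were 80.5%, 70.2% and 77.6% sense, while reads with over 100 places were 47.8% (42.5 to 53.1), 45.4% (43.4 to 47.5) and 47.4% (44.4 to 50.3) sense. Without the near copies, unique reads were 83.3%, 81.2% and 81.8% sense. The long-window value rests in part on Rmrp, a gene described further on, whose 490 unique reads there were all sense. Without Rmrp, 61.9% (59.6 to 64.1) of the unique reads of the long-window library were sense, below the 67.7% (66.5 to 68.9) of its reads with 2 to 10 places. The other two libraries were at 80.4% and 77.6% without Rmrp, above their 62.4% and 66.97% at 2 to 10 places. With near copies and Rmrp both left out, unique reads were 83.3%, 72.4% and 82.0% sense, lowest in the long-window library. C86187, also described further on, was kept in these shares. Its unique reads were 97.7% sense and numbered 248, 8 and 609 in the short-, long- and full-window libraries. Outside pseudogene exons, where most C86187 reads do not lie, the shares were 72.3%, 69.9% and 68.6%, with near copies and Rmrp kept. By that count the long-window library was not lowest.

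Coding and pseudogene exons had another strand pattern in the long-window library. Coding weighted reads were 61.5%, 33.9% and 55.2% sense in the short-, long- and full-window libraries, and pseudogene reads 42.8%, 33.9% and 43.3%. For unique reads of the long-window library the sense share was 70.2% (68.3 to 72.1) in lincRNA genes, 23.6% (23.4 to 23.9) in coding genes and 20.3% (19.0 to 21.6) in pseudogenes. These intervals do not overlap, nor does that of the lincRNA share without Rmrp, given above, with those of coding genes and pseudogenes. They cover counting error only and do not allow for reads concentrated in few genes. From coding genes and pseudogenes no gene was left out, and how far single genes set their shares was not tested. Many reads are shared between the 3 gene types, which makes the weighted shares dependent on each other, but the unique reads of lincRNA and coding genes share only places where annotated exons overlap.

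**Figure D1:**
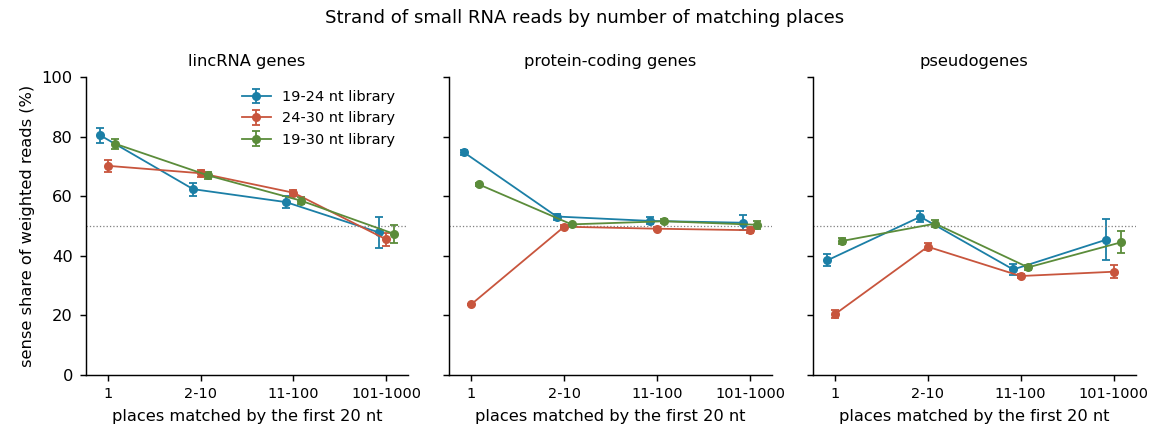
Share of weighted reads in the sense orientation (%, vertical axis) by the number of places that the first 20 nt matched (horizontal axis), for lincRNA, protein-coding and pseudogene exons in each of the 3 libraries; bars are 95% Wilson intervals. In lincRNA genes the share goes from 80.5%, 70.2% and 77.6% at 1 place (61.9% in the long-window library without Rmrp) to 47.8%, 45.4% and 47.4% above 100 places, while unique coding reads of the long-window library are at 23.6%.

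Short inserts led in length. In the full-window library 12479 of 17009 weighted lincRNA reads could be sized. Of these, 81.1% (80.4 to 81.8) were 20 to 23 nt, with 22 nt the most frequent length (33.5%, 32.7 to 34.4) and 21 nt next (25.4%, 24.6 to 26.2). Inserts of 25 to 30 nt, the size of piRNAs, made up 13.3% (12.7 to 13.9), with no length among them above 2.79%. Antisense reads held slightly more of the long class (14.6%, 13.6 to 15.7) than sense reads (12.5%, 11.8 to 13.3). Unique reads were shorter: 87.1% (85.5 to 88.5) were 20 to 23 nt and 7.94% (6.80 to 9.26) were 25 to 30 nt. In coding exons the 2 shares were 81.7% and 12.5%, and in pseudogenes 77.4% and 16.97%.

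Length moved with the number of places. The 20 to 23 nt share was 87.1% at 1 place, 83.3% at 2 to 10, 78.2% at 11 to 100 and 74.9% above 100, and the 25 to 30 nt share was 7.94%, 11.7%, 15.6% and 18.4%. Among the 158 lincRNA genes with at least 10 sized weighted reads, 157 had more than 50% of them at 20 to 23 nt. The median gene had 81.8%. These gene counts are not given here for other gene types. Reads without a linker, 26.6% of the weighted lincRNA reads of this library, have no length and were left out of these shares. Whether they hold longer inserts was not tested.

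**Figure D2:**
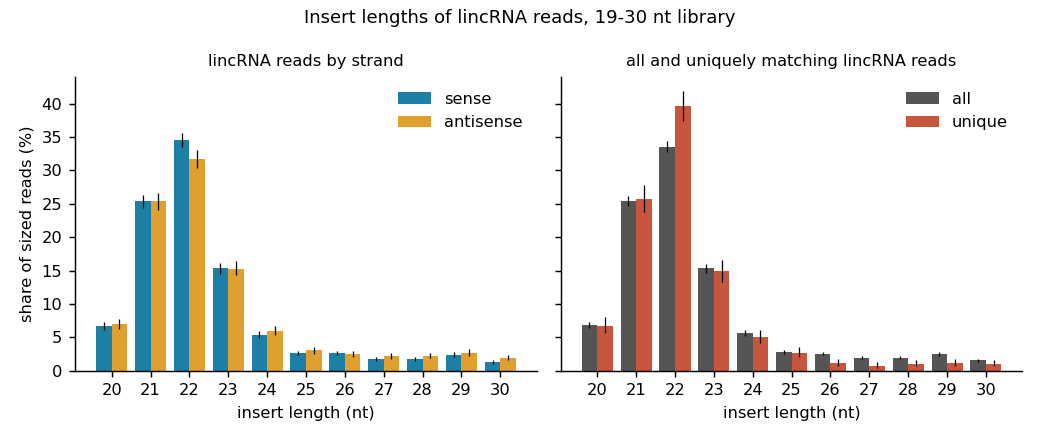
Insert length (nt, horizontal axis) as a share of the sized weighted lincRNA reads of the full-window library (%, vertical axis), for sense and antisense reads on the left and for all and uniquely matching reads on the right; bars show 95% Wilson intervals. All 4 series peak at 22 nt, with 33.5% of all and 39.6% of unique reads.

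The first base was U in 56.6% (55.2 to 57.9) of the weighted lincRNA reads of the short-window library, 75.5% (74.9 to 76.1) of the long-window library and 61.1% (60.3 to 61.8) of the full-window library. Within the full-window library U was more frequent in 25 to 30 nt reads (73.7%, 71.5 to 75.8) than in 20 to 23 nt reads (58.2%, 57.2 to 59.1). Unique reads started with U less often, in 44.6%, 52.2% and 54.1%. The middle value holds 490 reads of Rmrp, none of which starts with U, and without Rmrp it was 66.8% (64.6 to 69.0). Weighted reads started with U in 52.9%, 82.0% and 61.5% in coding exons and in 55.7%, 80.5% and 64.0% in pseudogenes.

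Long lincRNA reads had A at base 10 more often than at any other position from 2 on. In the long-window library, among reads without a linker, 48.6% of sense and 65.0% of antisense weighted reads had A at base 10. The other positions from 2 to 20 lay between 20.1% and 37.5% for sense and between 23.1% and 34.6% for antisense reads. In the 25 to 30 nt reads of the full-window library the share at base 10 was 46.7% (43.6 to 49.8) for sense and 60.5% (56.7 to 64.1) for antisense reads. Antisense reads were higher in both libraries. With each distinct first 20 nt counted as 1, the values of the long-window library were 38.9% for 7322 sense and 45.3% for 5933 antisense sequences, against at most 30.2% and 34.7% elsewhere. The 20 to 23 nt reads of the full-window library had no such peak, with 23.2% and 29.4% at base 10 and up to 31.1% and 31.9% at other positions. Among long-window reads without a linker, 67.8% of sense and 51.6% of antisense pseudogene reads had A at base 10. For coding reads the values were 47.3% and 19.8%. In both of these gene types sense reads were the higher ones, and many reads are shared with lincRNA genes.

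The overlap of reads from opposite strands was counted as the number of pairs of distinct first 20 nt whose 5′ ends overlapped by a given length at any lincRNA place. Long reads, 11055 distinct first 20 nt, gave 2162 pairs at 10 nt. At 9 and 11 nt they gave 1285 and 1254, and 1285 was the highest number at any other overlap from 1 to 30 nt. Short reads of 20 to 23 nt gave 1829 pairs at 10 nt, against 1780 at 9 nt and 1733 at 11 nt. They gave most pairs at 1 nt, 2180, and 1655, 1577 and 1587 at 18, 19 and 20 nt. Sequences of 1 repeat family can form many of these pairs, so that pairs are not independent. Among unique reads alone, long reads gave 9 pairs at 10 nt, in 8 genes, and at most 4 at overlaps from 11 to 21 nt. Unique short reads gave 10, 12, 10 and 13 pairs at 14, 15, 16 and 17 nt. They gave 16, 13 and 16 at 18, 19 and 20 nt, and 9 at 21 nt. Gm12590 alone gave 6 at each overlap from 17 to 20 nt. At 10 nt unique short reads gave 3.

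**Figure D3:**
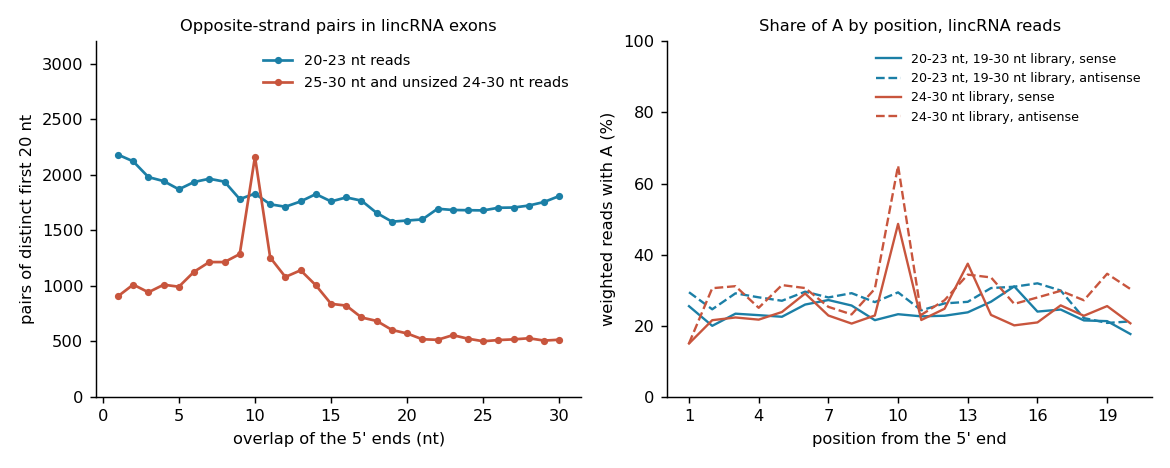
Left: pairs of distinct first 20 nt on opposite strands of lincRNA exons (vertical axis) by the overlap of their 5′ ends (nt, horizontal axis), for short and long reads. Right: share of weighted lincRNA reads with A (%, vertical axis) by position from the 5′ end, for short reads of the full-window library and for reads without a linker of the long-window library, by strand. Long reads peak at an overlap of 10 nt with 2162 pairs and at base 10 with 48.6% (sense) and 65.0% (antisense).

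Reads were concentrated in few lincRNA genes. Of 41850 weighted reads over the 3 libraries, the first gene held 9.45%, the first 10 held 34.0% and the first 50 held 65.2%. At least 1 weighted read was reached by 933 genes, at least 10 by 313 and at least 100 by 84. Of 5888 unique reads the first gene held 14.7% and the first 10 held 45.5%, and 37 genes had at least 30. Among the 313 genes with at least 10 weighted reads, the median sense share was 57.1%, 42 genes were over 90% sense and 17 were under 10%. Such counts are not given here for other gene types, so no trait particular to lincRNA genes can be read from them.

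Genes were compared between libraries per matched read outside structural genes where they had at least 10 weighted reads. Fold values of single genes below are given on the same count. Of 248 lincRNA genes, 66 (26.6%) were at least 2-fold higher in the short-window than in the long-window library, where the share over all genes was 28.5%. At least 2-fold lower were 34 (13.7%), against 14.9% of all genes. Between the full-window and the long-window library, 97 of 292 lincRNA genes (33.2%) were at least 2-fold higher, against 38.2% of all genes. At least 2-fold lower were 41 (14.0%), against 16.9% of all genes. The median ratio over lincRNA genes was 1.15 and 1.13 in these comparisons, against 1.18 and 1.16 over all genes. The lincRNA shares are all close to the shares over all genes.

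AC160336.1 had most weighted reads, 264 in the short-window, 2574 in the long-window and 1118 in the full-window library. It is annotated as a single exon of 93147 nt at chr14:44544055-44637201, and per kb of exon it had 42.5 weighted reads. Its reads were 61.6% sense and 77.9% started with U. Its sized reads in the full-window library were 69.8% 20 to 23 nt and 25.6% 25 to 30 nt. It was 1.95-fold (1.72 to 2.23) higher in the long-window than in the short-window library per matched read outside structural genes.

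Gm26905 came next with 107, 1187 and 439 weighted reads and 262 per kb of exon. It had 1 unique read. Before weighting, 56.5% of its reads also matched AC160336.1, so that these genes share much of their signal. Its sense share was 55.7% and it was 2.23-fold (1.83 to 2.74) higher in the long-window than in the short-window library.

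Gm15298 on chromosome X had 192, 748 and 703 weighted reads and 1355 per kb of exon. It was 94.8% sense. Both size classes were there: the long read printed above had 25, 907 and 99 reads by its first 20 nt in the short-, long- and full-window libraries, and the short one had 72, 28 and 375. These reads matched 5 and 7 places. Gm10845 on chromosome 14 had 88.6, 534 and 429 weighted reads, 70.7% of them sense. Per matched read outside structural genes, its short-window level did not differ from the long-window level beyond counting error (ratio 0.827, 0.653 to 1.04). By RPM its short-window level was lower, 290 against 1563.

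A group of 4 genes with the same repeated sequences, Gm43042, Gm37724, Gm38025 and Gm16211, followed. They had 214, 371 and 789 weighted reads, 173, 242 and 606, 173, 235 and 592, and 145, 173 and 525 in the short-, long- and full-window libraries. Between 52.6% and 81.1% of the reads of each, before weighting, also matched any given other one of the 4. Gm43042, Gm38025 and Gm16211 were 91.0%, 88.3% and 87.1% sense, whereas Gm37724 was 17.4% sense. The shared read printed above lies antisense in Gm37724 and sense in the other 3. Per matched read outside structural genes, all 4 were at least 2.87-fold higher in the short-window than in the long-window library. Gm16211 was at 4.17-fold (3.32 to 5.23). By RPM all 4 were instead lower in the short-window library. The levels were 701 against 1086 RPM in Gm43042, 566 against 707 in Gm37724, 566 against 689 in Gm38025, and 474 against 506 in Gm16211. From 84.4% to 88.3% of their sized reads were 20 to 23 nt.

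Gm37724 also had 99 unique reads, of which 77 were sense. The strand of its unique reads was thus the opposite of that of its weighted reads. A cluster at chr1:33066108-33066133 held 86 of the 99, which counts 5′ ends. Of the unique reads, 14 were near copies of more frequent reads. Gm45322 on chromosome 8, the tenth gene, had 84.4, 401 and 253 weighted reads and was 77.5% sense, and 27 of its 30 unique reads were near copies.

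**Figure D4:**
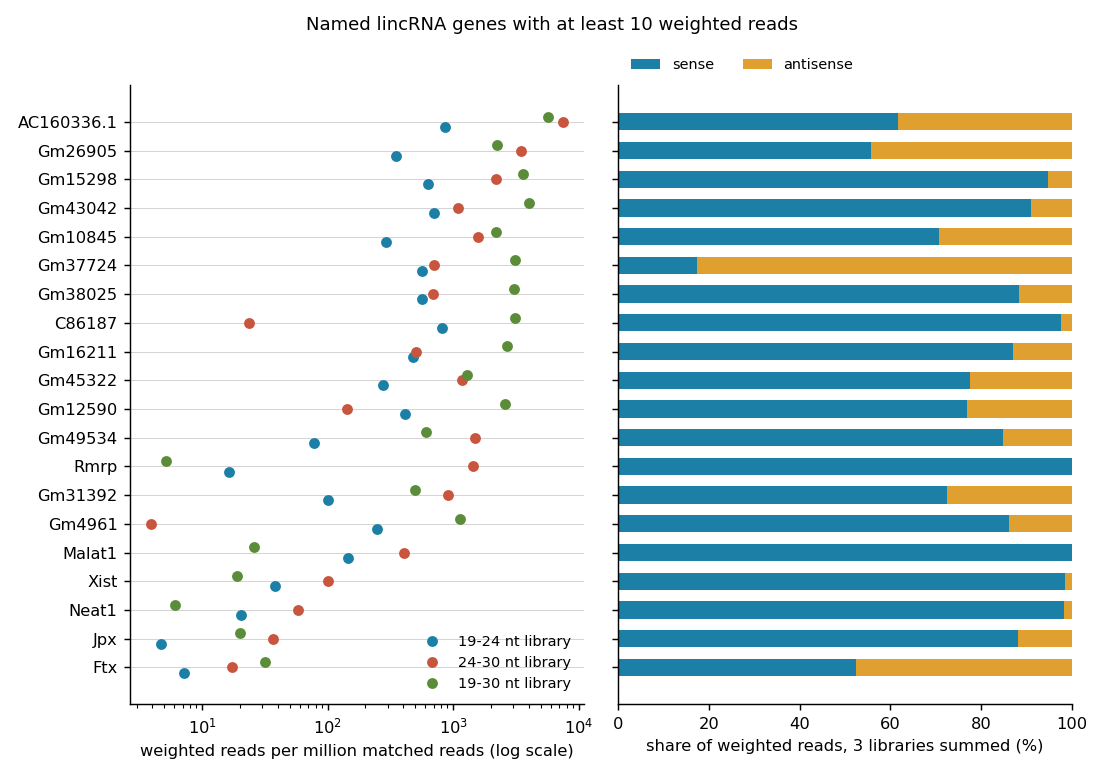
Left: weighted reads per 1000000 matched reads (log scale) in each of the 3 libraries, for the named lincRNA genes with at least 10 weighted reads over the libraries together. Right: sense and antisense shares of their weighted reads over the 3 libraries (%). AC160336.1 is highest in the long-window library, C86187 is lower there than in the other libraries, and Gm37724 is the gene with 17.4% sense.

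C86187 was the gene with most unique reads, 248, 8 and 609 in the short-, long- and full-window libraries. They were high in both libraries whose windows hold 20 to 23 nt RNA and low in the third. All but 20 of the 865 were sense, and 95.4% of the unique sized reads of the full-window library were 20 to 23 nt. Per matched read outside structural genes the weighted level in the short-window library was 156-fold that of the long-window library (77.9 to 365), and that of the full-window library 129-fold (65.3 to 301). The 5′ ends at 46975561 and 46975560 on chromosome 7 held 382 and 276 of the reads, 44.2% and 31.9%. The read printed above starts at the first of these, in exon 1. Of the sized unique inserts over 20 nt in the full-window library, 392 of 439 matched the gene's transcripts to their end.

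The C86187 reads lie where a processed pseudogene is annotated on the other strand. Gm31941 spans chr7:46975366-46975715 on the plus strand, inside the span of C86187 (chr7:46967711-46975911, minus strand). In its exon lay 786 of the 865 unique reads (90.9%), 778 of them antisense to the pseudogene and sense to the lincRNA. A pair of other genes, chosen after their values were seen, also had unique reads in the exon of a processed pseudogene on the other strand. Gm9403 lies wholly inside the span of Gm29811 on chromosome 3, and 124 of the 149 unique reads of Gm29811 (83.2%) lay there, all antisense to the pseudogene. Gm10857 on chromosome 2 overlaps Gm13384 in part, with 132 of its 138 unique reads (95.7%), 131 of them antisense to the pseudogene.

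Over all lincRNA genes, 293 of 968 assignments of unique reads in the short-window library (30.3%) and 767 of 2671 in the full-window library (28.7%) lay in an exon of a pseudogene, against 11 of 2249 (0.489%) in the long-window library. An assignment is a read counted for each lincRNA gene at its place. Of these 1071, 1062 were antisense to the pseudogene and 9 sense. Inside pseudogene exons 99.2% were sense to the lincRNA, and outside them 69.7%. C86187, Gm29811 and Gm10857 together hold most of these reads, with 786, 124 and 132.

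Gm12590 on chromosome 11 was a gene with unique reads on both strands, 33, 6 and 117 in the 3 libraries, 111 of them sense and 45 antisense. All lay between 121882364 and 121882720. Its weighted level was 12.8-fold (9.11 to 18.2) higher in the short-window and 17.6-fold (13.1 to 24.1) higher in the full-window than in the long-window library. Of its sized reads 93.9% were 20 to 23 nt and 1.91% were 25 to 30 nt. Its most-read first 20 nt, with 36 reads, seldom matched beyond base 20: of 19 longer inserts in the full-window library 1 matched to its end. The pair printed above matched to the end on both strands. Whether the other inserts come from a copy outside the annotated exons was not tested.

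**Figure D5:**
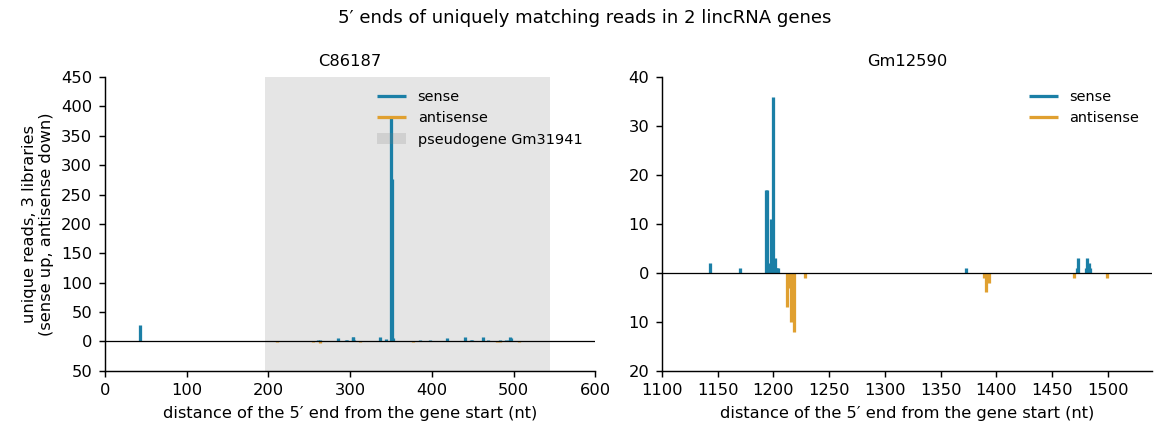
Uniquely matching reads of the 3 libraries by the distance of their 5′ end from the start of the gene (nt, horizontal axis), sense reads upwards and antisense reads downwards, for C86187 (left, with the span of pseudogene Gm31941 shaded) and Gm12590 (right). C86187 shows its main 5′ end, with 382 reads, inside the shaded span, and Gm12590 shows 111 sense and 45 antisense reads in facing clusters.

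Other genes met the rule for unique reads on both strands, at least 30 with at least 10% on each. There were 11 such genes, and 7 of the 27 genes with at least 30 unique reads once near copies were left out. How many genes of other types meet the rule is not given here. AC160336.1, with 49 sense and 70 antisense reads then, and Gm10845, with 61 and 7, were among the 7. Gm31392, with 65 sense and 8 antisense unique reads before, kept 24 and 4, and 45 of its 73 were near copies. AC154172.2, a gene outside the naming rule, had no near copies and 23 sense and 28 antisense reads.

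Gm4961 on chromosome 5 had 180 unique reads, 43, 0 and 137 in the 3 libraries. The 0 unique reads of the long-window library allow up to 8.78 RPM. Of the 180, 177 were sense and they were spread over 93 distinct 5′ ends, with no more than 8 at any 1. Its sized weighted reads were 91.3% 20 to 23 nt. This pattern, sense and short, resembles that of C86187 in strand and length. The unique reads of C86187 also had 93 distinct 5′ ends. Its main 5′ end held 44.2% of them, against 4.44% for that of Gm4961.

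Gm49534 on chromosome 16 had most of its reads in the long-window library, with 23.9, 513 and 118 weighted reads. It was 4.31-fold (2.86 to 6.80) higher there than in the short-window library. Its reads were 84.9% sense, 86.0% started with U, and 41.2% of its sized reads in the full-window library were 25 to 30 nt. Of its 75 unique reads 49 were near copies.

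Rmrp, the RNA subunit of the RNase MRP enzyme, is typed as lincRNA in this annotation though it is a structural RNA. It had 5, 490 and 1 reads, all unique and sense, and 1765 per kb of exon. Of the 496, 479 (96.6%) started at the same base, 43493059 on chromosome 4, and began with the A shown above. Rmrp was 19.7-fold (8.36 to 60.8) higher in the long-window than in the short-window library. It held 490 of the 2249 unique assignments of the long-window library.

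Malat1, an abundant RNA of nuclear speckles, had 44, 138 and 5 unique reads. All 187 were sense, and they began at 177 distinct positions, with no more than 2 reads at any 1. Of its weighted reads 26.2% started with U. Per matched read outside structural genes it was 16.2-fold (6.80 to 50.4) lower in the full-window than in the long-window library, and in the short-window library 1.59-fold higher (1.11 to 2.25). By RPM the short-window level of Malat1 was instead below the long-window level, 144 against 404. Neat1, the scaffold RNA of paraspeckles, had 25 unique reads, all sense and at 25 distinct positions.

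Xist, the RNA that coats the inactive X chromosome, had 10, 34 and 3 unique reads, all 47 sense. Of these, 33 (70.2%) began at 103461256 on chromosome X, in exon 7. By their first 20 nt they were 8, 23 and 2 reads in the short-, long- and full-window libraries. A 21 nt insert with 2 reads and a 20 nt insert with 1 read began there. Whether the other reads match Xist beyond base 20 was not tested. The unique reads of Xist are not all its alone: 36 of the 47 (76.6%) also lay in an exon of another annotated gene. Those genes are Gm27733, of type misc_RNA, and Tsix, of type antisense. Jpx and Ftx, neighbours of Xist that act on its expression, had 17.8 and 14.2 weighted reads with 1 and 2 unique reads. Miat had 1 read. Of the 9 genes listed for nuclear RNAs and X inactivation, 6 were of type lincRNA, 6 of these had reads and 5 reached 10 weighted reads.

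Among 8 listed imprinted non-coding RNAs 3 were of type lincRNA. H19 had no read, Meg3 had 4 and Mirg, host of a microRNA cluster, had 2, and none reached 10. Of 17 genes listed as hosts of small RNAs 7 were of type lincRNA. Rmrp is on that list but is itself a structural RNA and no host. Of the other 6, 2 had reads and none reached 10. Snhg12 had 3 reads and Mir155hg 0.642 weighted reads, and Snhg6, Mir17hg, Mir124a-1hg and Mir9-3hg had none. Reads left out because they also matched a structural or microRNA gene numbered 13323 for Mir17hg, 711 for Mirg and 396 for Mir155hg, and 0 for Snhg6 and Mir9-3hg. Genes that are not on the host list also lost reads in this way, with 552 for Malat1, 480 for Ftx, 465 for Jpx and 288 for Neat1. Over all lincRNA genes the excluded reads were 57.8%, 4.88% and 12.4% of those matching a lincRNA exon. Of them, 97.4%, 66.4% and 79.1% matched a gene named as a microRNA.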

How the data were processed

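The deposited files hold neither counts nor levels but, per the file contents, other values: single reads with a quality for each base and the 3′ linker still in place. The authors' aligner, filters and build are not given in the sources used here. Counts were therefore made here, in place of the counts the design assumed. Members, lists and tests were chosen with earlier results of these data known.

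The linker (17 nt, derived from the reads) was removed where at least 4 (26 nt reads) or 6 (36 nt reads) of its bases were found with up to 20% mismatches. Inserts under 20 nt, with an uncalled base in the first 20 nt, or with fewer than 8 distinct trinucleotides there were dropped. Reads without a linker were kept as unsized. In the 36 nt reads, miscalls in late cycles or an insert too long to leave 6 linker bases could both hide it. Which of these applies was not tested. The first 20 nt were matched without mismatch to both strands of 141767 GENCODE M21 transcripts (GRCm38), placed on the genome through exons. A place is a chromosome, strand and 5′ base. Reads were weighted by 1 over their places, and those with over 1000 were set aside. "Unique" thus means unique among annotated exons. Later bases were not required to match: in the 19-30 nt library 64.2% of lincRNA inserts over 20 nt matched to their end, and in the 26 nt reads 50.4% and 45.9%.

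Reads matching microRNA, rRNA, snRNA, snoRNA or mitochondrial tRNA genes of GENCODE, or RefSeq loci (GRCm38.p6) of these types, were left out. Nuclear tRNA sequences were not searched, and 36 of 430 RefSeq tRNA loci had a matched place in an exon, so the tRNA exclusion is partial. Overlapping genes on 1 place each received the read in gene counts. In the strand shares of a gene type, a place sense to 1 of its genes and antisense to another counted as sense. This rule can only raise the sense shares, and its effect was not measured.

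With 1 library per window no test was made. Intervals are Wilson (shares), exact Poisson (levels) and conditional binomial (ratios), at 95%, for counting error only, since PCR copies are not independent molecules. Weighted reads were treated as counts. The floor is 3 counts. Named genes are the 10 with most weighted reads, the 5 with most in each library, the 5 with most unique reads, up to 5 with at least 30 unique reads and at least 10% on each strand, and the listed members. The steps were tested on simulated reads. Python 3.11.15, numpy 2.4.6, pandas 2.3.3, scipy 1.17.1 and matplotlib 3.10.9 were used.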

Additional observations from a re-analysis of the deposited data

How the results depend on the processing

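Of 106 recomputed values 30 stayed within the counting interval of the reported value and 76 moved out of it. Values are given for the short-, long- and full-window libraries in this order. The level per 1000000 matched reads was 3168, 6567 and 13594 with uniquely matching reads, 428989, 1858990 and 2284490 with every match counted as a full read, 78288, 68990 and 94529 with each distinct insert counted as 1, and 15784, 50932 and 81274 with reads of over 100 places set aside. It was 101728, 66316 and 122747 with structural reads kept, 2205, 6626 and 10031 without reads that also match another gene type, and 97794, 74496 and 109334 per 1000000 matched reads outside structural genes. In the full-window library it was 43102 where the whole insert had to match. Alternatives chosen after seeing the data gave 12265, 36937 and 61853 without reads that match a named excluded gene, 55147 and 84833 in the last 2 libraries without near copies, and 63702 without unsized reads of the full-window library.

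The sense share was 80.5%, 70.2% and 77.6% with unique reads, 54.2%, 53.1% and 54.8% with full matches, and 71.1%, 70.1% and 68.2% without reads of other gene types. Distinct inserts gave 61.6% in the short-window and 60.8% in the full-window library, and leaving out reads of the named excluded genes gave 61.0% in the long-window library. It stayed above 50% under each of these. Leaving out Rmrp, also chosen after seeing the data, moved the sense, U and unique shares of the long-window library to 61.3%, 77.4% and 1.44%. The U share was 44.6%, 52.2% and 54.1% with unique reads, 50.4%, 56.8% and 53.0% with distinct inserts, and 54.6%, 73.1% and 59.6% without reads of the named excluded genes. Without AC160336.1 it was 74.3% in the long-window library.

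The unique share was 5.51%, 9.01% and 5.05% with distinct inserts, 6.22%, 3.53% and 4.99% without reads of the named excluded genes, and 3.58%, 1.23% and 2.67% without near copies. It was 2.95% in the full-window library without unsized reads. The share of 20 to 23 nt was 87.1% (unique), 76.9% (distinct), 81.9% (without AC160336.1), 90.4% (whole insert), 82.1% (without reads of the named excluded genes) and 82.3% (looser linker search). That of 25 to 30 nt was 7.94%, 15.3%, 12.4%, 8.10%, 12.1% and 11.5% in the same order. Of the 10 genes with most reads 2 were also among the 10 with most unique reads. The cause of these shifts was not tested, beyond the reads that each setting leaves out. No paired analysis was possible because each window has 1 library. Depth limits single genes most: with 0 reads a gene could still be at 9.83, 8.78 and 15.3 RPM.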
